A study of Caenorhabditis elegans with 2 samples.

Results

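The regions described here are the autosomal candidates of the LAG-1 ChIP-seq ranking that lay in repeats, outside genes and promoters, and that repeated between replicates. LAG-1 is the DNA-binding protein of the Notch pathway in the nematode Caenorhabditis elegans. The study tagged the lag-1 gene on chromosome IV by CRISPR insertion with TY1, EGFP and 3xFLAG (allele st12314, in strain RW12314), so that the tagged protein comes from its own locus in whichever cells use that locus. Whole worms, hatched and starved as L1 larvae after bleaching, were collected as young adults at 62 hours, and an antibody to GFP precipitated the sonicated chromatin. There was 1 group of 2 biological replicates, both carrying the tag, so no condition could be compared and no untagged precipitation was analysed here. A whole worm mixes germline and soma, so the cells behind a signal are not known.

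A region was taken if its global irreproducible discovery rate (IDR, an estimate of how often an entry so ranked in both replicates would fail to repeat) was at most 0.1. Its summit also had to lie on chromosomes I to V, in no protein-coding gene and not between 500 bp upstream and 100 bp downstream of a coding 5' end. More than 50% of the 201 bases around the summit had to be soft-masked as repeats in the ce11 genome. Of 125458 candidates 229 met the rule. The regions were thus chosen by the IDR, which follows the signal in both replicates, and every signal below is a description with no test. An IDR of at most 0.1 was reached by 3.5% of all candidates, 3.29% of the 6954 masked autosomal candidates outside genes and promoters, and 3.1% of the 19543 unmasked ones. Being masked therefore went with almost the same share of candidates at this limit. Below, the 229 are set beside the 606 unmasked candidates under the same limits and the 6725 masked candidates above an IDR of 0.1.

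LAG-1 is a CSL protein, the family that carries Notch signals to DNA. When the receptors LIN-12 or GLP-1 are cleaved, their intracellular part joins LAG-1 and a Mastermind-like coactivator on target genes. The protein reads a short word whose common forms are ATGGGAA and GTGGGAA, called the LAG-1 site here, and known targets often carry several. Tandem repeats are stretches in which a unit of sequence follows itself head to tail, and the arms of nematode autosomes are known to be richer in repeats than their centres.

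The largest set of like sequences among the regions was a family of tandem arrays. It held 30 regions on all 5 autosomes, 21 with a LAG-1 site and 9 without, joined by alignments of at least 50 bp at 80% identity. The 5 windows below, 201 bases around the summit in ce11, show its site-bearing and site-free forms. The first 3 are read on the minus strand, where all their sites lie, and the last 2 on the plus strand. Capitals mark LAG-1 sites.
With 7 sites, nearest coding gene ddl-3, chrII:14337724-14337924: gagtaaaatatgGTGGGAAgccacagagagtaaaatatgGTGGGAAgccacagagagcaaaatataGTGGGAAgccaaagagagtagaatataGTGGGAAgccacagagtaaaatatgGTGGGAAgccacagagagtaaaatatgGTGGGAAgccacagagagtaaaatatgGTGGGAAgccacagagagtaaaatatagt
With 8 sites, nearest pes-10, chrII:12845480-12845680: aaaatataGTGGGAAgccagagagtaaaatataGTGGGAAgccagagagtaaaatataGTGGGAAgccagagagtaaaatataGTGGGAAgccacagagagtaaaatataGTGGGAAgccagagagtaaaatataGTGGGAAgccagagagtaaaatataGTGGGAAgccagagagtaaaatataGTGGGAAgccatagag
With 7 sites, nearest nspa-10, chrV:14756638-14756838: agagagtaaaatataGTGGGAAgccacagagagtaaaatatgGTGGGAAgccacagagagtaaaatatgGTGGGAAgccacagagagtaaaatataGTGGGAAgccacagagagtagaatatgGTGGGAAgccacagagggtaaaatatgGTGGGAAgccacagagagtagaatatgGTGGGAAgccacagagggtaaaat
Without a site, nearest fbxa-28, chrIII:1299863-1300063: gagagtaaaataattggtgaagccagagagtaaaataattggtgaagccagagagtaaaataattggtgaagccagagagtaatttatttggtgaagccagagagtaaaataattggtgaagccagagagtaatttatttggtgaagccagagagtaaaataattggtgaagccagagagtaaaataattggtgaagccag
Without a site, nearest Y54F10AM.8, chrIII:2497887-2498087: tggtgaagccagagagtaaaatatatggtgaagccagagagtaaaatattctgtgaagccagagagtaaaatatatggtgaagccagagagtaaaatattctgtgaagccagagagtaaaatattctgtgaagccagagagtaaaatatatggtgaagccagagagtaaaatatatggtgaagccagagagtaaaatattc
In all 5 windows a run close to gccagagagtaaaata or gccacagagagtaaaata comes round every 25 to 27 bases. In the first 3 windows GTGGGAA stands before gcc in each whole unit, and in the last 2 tgtgaagcc or tggtgaagcc stands there.

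Other regions held other units. The next 5 windows are the strongest region of all, the second strongest, a site-bearing unit that was not joined to the family above, a window rich in the telomere word of C. elegans (TTAGGC, here as its reverse complement GCCTAA), and the strongest of a set of 22 dispersed copies. All are read on the plus strand. Capitals mark LAG-1 sites, on either strand, in the third and telomere words in the fourth.
Nearest Y49G5A.1, chrV:5284067-5284267: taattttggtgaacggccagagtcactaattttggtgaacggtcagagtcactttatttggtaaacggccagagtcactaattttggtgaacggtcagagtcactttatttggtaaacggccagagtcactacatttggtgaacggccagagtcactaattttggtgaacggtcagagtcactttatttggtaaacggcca
Nearest vha-19, chrIV:3366928-3367128: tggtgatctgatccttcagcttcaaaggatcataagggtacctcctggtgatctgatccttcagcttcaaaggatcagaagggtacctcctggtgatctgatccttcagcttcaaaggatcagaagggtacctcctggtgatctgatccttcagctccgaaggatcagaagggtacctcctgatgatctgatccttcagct
Nearest Y97E10AL.1, chrV:7989108-7989308: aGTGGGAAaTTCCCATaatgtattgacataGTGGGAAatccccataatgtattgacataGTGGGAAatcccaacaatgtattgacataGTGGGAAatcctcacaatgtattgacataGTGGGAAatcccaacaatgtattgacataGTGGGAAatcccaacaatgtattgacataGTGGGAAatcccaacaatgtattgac
Nearest F32D1.3, chrV:4362226-4362426: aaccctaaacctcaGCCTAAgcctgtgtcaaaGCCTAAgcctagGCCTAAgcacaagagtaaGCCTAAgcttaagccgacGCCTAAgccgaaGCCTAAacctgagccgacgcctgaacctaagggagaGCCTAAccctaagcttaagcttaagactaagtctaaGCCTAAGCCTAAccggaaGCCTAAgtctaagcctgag
Strongest of the dispersed set, chrII:13832304-13832504: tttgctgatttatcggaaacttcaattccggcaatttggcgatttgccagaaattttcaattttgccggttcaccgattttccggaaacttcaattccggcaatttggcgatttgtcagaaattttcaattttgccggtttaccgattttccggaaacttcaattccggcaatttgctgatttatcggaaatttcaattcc
The unit of the first window is 26 bases long, of the second 45 and of the third 29. The fourth repeats its word with other letters between, and the fifth has a unit of 69 bases, with a best match to itself of 87.9%.

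Of the 50 regions with the highest signals 40 lay in tandem repeats, that is, in windows matching themselves at 80% or more under a shift. The signal is the authors' value per peak, whose unit the files leave unnamed. Its median over the 229 regions was 49.8 (4.68 to 711.3). The median was 44.3 over the unmasked and 17.0 over the weaker masked candidates. The rule fixed the gap to the weaker candidates. A signal over 100 was found at 45 of the 229 regions.

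The highest signal, 711.3, was at chrV:5284108-5284175, in a tandem array of 2576 bp. The summit lay 3206 bp past the 5' end of Y49G5A.1. Taken from each replicate's own ranking, its signals in replicates 1 and 2 were 261.5 and 471.7. A neighbour in the same array, at chrV:5284706-5284941, had 354.6, with 186.1 and 193.7 in the replicates. Both stood far above the median of either replicate, which was 24.4 over 216 regions in replicate 1 and 27.8 over 221 in replicate 2.

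The second highest, 456.7, was 2169 bp upstream of vha-19, which encodes a subunit of the vacuolar proton pump, in the 45-bp unit shown above (219.2 and 237.6 in replicates 1 and 2). The same unit, on the other strand, gave 353.6 near Y69E1A.1 (177.6 and 168.9). A related but different unit gave 235.3 near Y57G11C.8 (115.1 and 136.2). The replicates were close to each other at all 3. At chrV:266365-266481, nearest to lgc-26, a gene of the ligand-gated ion channel class, the signal was 407.7. There the replicates were farther apart (113.2 and 296.5). The window of this region was not tandem under the shifts tried, of 2 to 100 bases. The bases at its start came again at its end, under a longer shift that was not tried.

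Near fbxa-28, an F-box gene, the site-free family window had 389.9, with 188.4 and 202.1 in the replicates. The site-bearing window near ddl-3 had 266.3, with 89.3 and 181.1. Near clc-23, a claudin-like gene, a 59-bp unit in an array of 3384 bp had 238.5 (101.4 and 147.4). The remaining 3 of the 12 strongest were 2 regions of 1 array near Y95D11A.1 (267.7 and 215.7) and 1 near ttr-17, a transthyretin-related gene (221.0). At the first of these replicate 1 was the higher (186.5 and 82.8), and at the other 2 replicate 2 was (87.5 and 146.5, then 94.3 and 126.6).

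**Figure D1:**
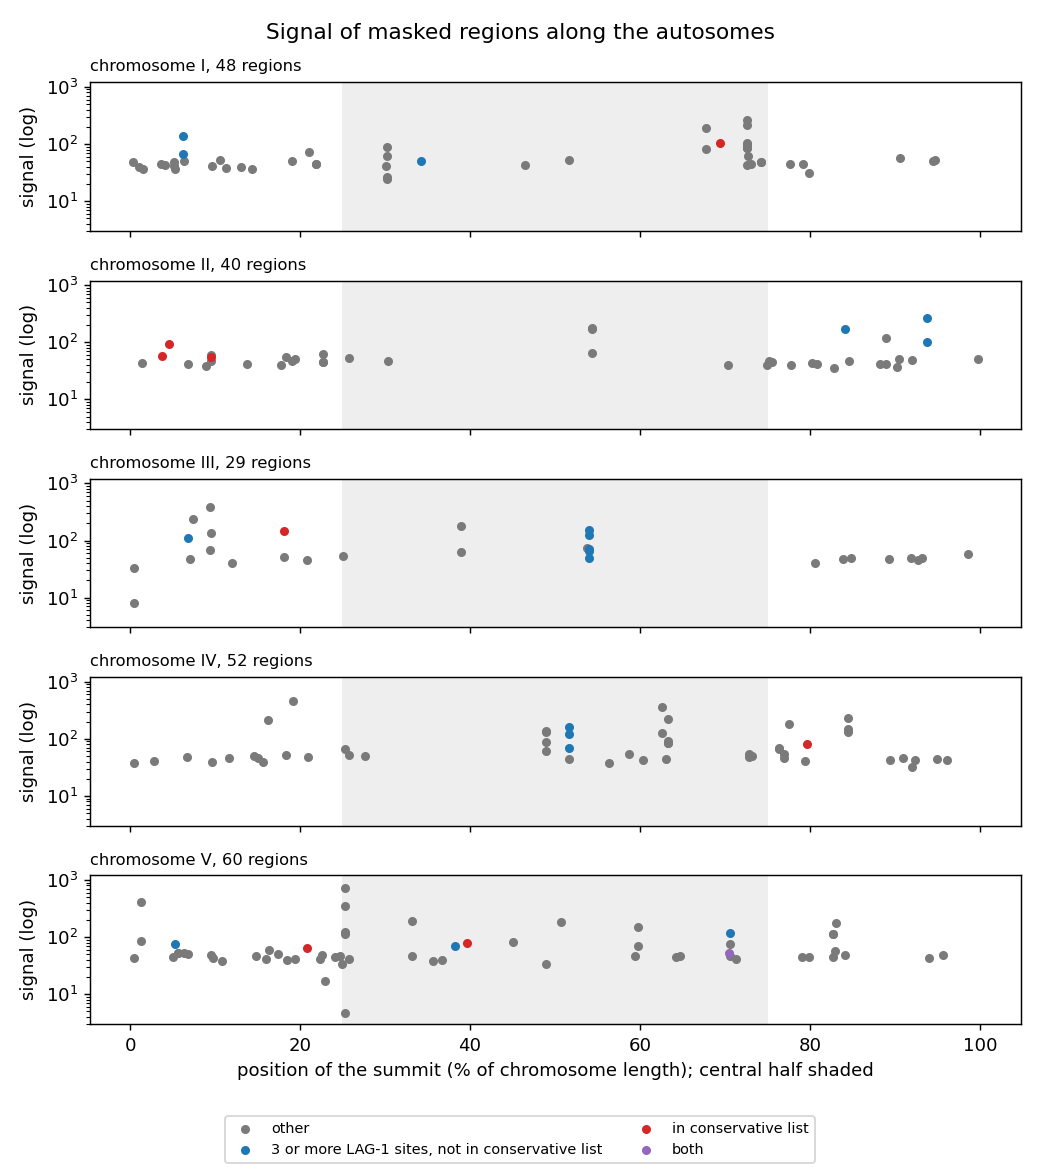
Signal (log scale) of the 229 regions against the position of the summit along chromosomes I to V in percent of chromosome length, with the central 50% shaded; red points were in the authors' conservative list, blue points held 3 or more LAG-1 sites and the purple point both. Columns of points are clusters, and most red points lie below the highest signals of their chromosome.

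Few of these regions reached the authors' conservative list, which holds peaks at an IDR of at most 0.01. That limit was passed by 0.312% of all candidates, by 76 of the 229 regions (33.2%, Wilson 95% interval 27.4 to 39.5) and by 51 of 606 unmasked candidates (8.42%, 6.46 to 10.9). Of the 76, the list held 9 (11.8%, 6.36 to 21.0), whereas it held 46 of the 51 unmasked ones (90.2%, 79.0 to 95.7). The intervals cover counting error only, and they take regions as independent, which copies of 1 repeat are not. Of the 100 entries of the whole ranking that passed 0.01 and were absent from the list, 67 were these regions. The deposited notes list 1 further input file for the list that the ranking lacks, and the sources used here do not name what removed the 67.

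The 9 kept regions were not the strongest. Their signals ran from 53.4 to 144.1 (median 79.2), and the first of them ranked 27th of 229. The 67 that were left out had a median of 120.7, and 26 regions outside the list were above the highest kept one. The kept regions with the highest signals were the site-free family window near Y54F10AM.8 (144.1, with 38.9 and 103.5 in replicates 1 and 2) and a copy of the 45-bp unit near Y106G6H.9, at chrI:10462624-10462859 (104.8, with 52.2 and 76.9). Both were higher in replicate 2.

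A 15-bp unit gave 2 of the kept regions, near T02H6.11 (91.7, with 55.8 and 32.6) and near Y37A1A.2 (81.5, with 45.1 and 43.2). The telomere word gave 2, upstream of F32D1.3 (63.1, with 32.2 and 31.4) and upstream of mlt-8, a gene named for a molting defect (58.5, with 33.9 and 27.7), where the noncoding RNA genes W08F4.16 and W08F4.18 lay under the summit. The others were nearest to W02D7.12 (79.2), Y51H7C.13 (54.9) and nspa-10 (53.4). The last, in the site-bearing family, was the only kept region with a LAG-1 site and had no entry in replicate 1's own ranking (37.5 in replicate 2). The list of pooled reads held 12 of the 229, and the thresholded list of each replicate held 2, with 0 in both.

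The values just inside and outside the limits were close. Just inside the IDR limit, signals were 40.2 (IDR 0.0999) and 41.2 (0.0997), and just outside 42.5 and 31.4 (both 0.101). The masked share was 50.7% at both regions just inside and 49.8% and 49.3% at those just outside, where signals ran from 42.1 to 48.9 across all 4.

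Tandem sequence was more common in the regions than in either comparison set. Soft-masking marks repeats, so the rule itself favoured a gap to the unmasked candidates. The weaker masked candidates met the same masking limit, with a lower median masked share (68.2%, beside 91.5% in the regions). A window was called tandem if it matched itself at 80% or more under some shift of 2 to 100 bases, and 91 of 229 were (39.7%, 33.6 to 46.2). The share was 0.990% (0.455 to 2.14) among unmasked and 4.55% (4.08 to 5.07) among weaker masked candidates. The 91 had a median signal of 71.1 and the 138 others 46.2. Among regions at an IDR of at most 0.01 the tandem share was 55 of 76 (72.4%, 61.4 to 81.2), beside 3 of 51 unmasked ones (5.88%, 2.02 to 15.9).

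Reads from arrays are hard to place, so the share of 50-base words in each window that occur once in the genome was counted as well. Its median was 62.5% over the 229 regions and 100% in both comparison sets. In 23 regions no word was unique, with signals from 46.5 to 389.9 (median 119.6). In 70 every word was unique, with signals from 31.5 to 182.2 (median 45.3), and 2 of these passed an IDR of 0.01. The treatment of reads that fit several places is not given in the sources used here. Its part in these signals was not tested.

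**Figure D2:**
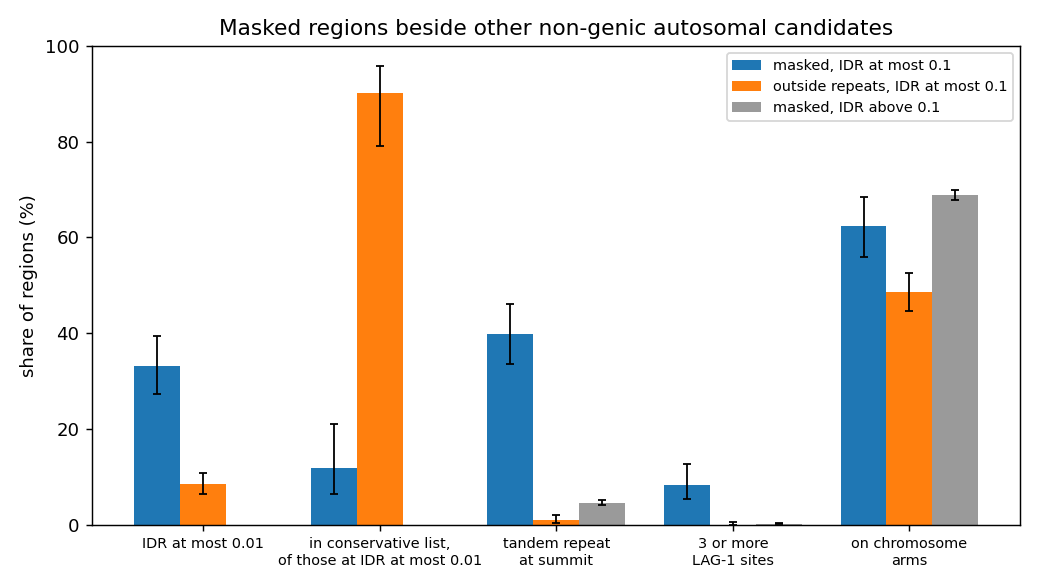
Share of regions (%, bars, with Wilson 95% intervals) for 229 masked regions at IDR of at most 0.1, 606 unmasked candidates at the same limit and 6725 masked candidates above it; the first 2 groups of bars are not drawn for the last set, which cannot pass 0.01. Blue bars exceed the other colours for tandem repeats (39.7%) and for 3 or more LAG-1 sites (8.30%), and the blue bar is the lower for presence in the conservative list (11.8% against 90.2%).

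LAG-1 sites were more common in these windows than in the comparison sets, and the difference lay in windows with several sites. Counting both strands of each 201-base window, at least 1 site stood in 27 of 229 windows (11.8%, 8.23 to 16.6), in 7.10% (5.31 to 9.42) of unmasked, 5.34% (4.83 to 5.90) of weaker masked and 6.44% of all candidates. Windows with 3 or more sites numbered 19 of 229 (8.30%, 5.38 to 12.6), 0 of 606 unmasked (up to 0.630%), 16 of 6725 weaker masked (0.238%, 0.147 to 0.386) and 76 of all 125458 (0.0606%). In all, 117 of the 123 sites read GTGGGAA and 6 ATGGGAA. The 19 windows held 3 to 8 sites, had signals of 48.5 to 266.3 (median 102.6), and 14 of them passed an IDR of 0.01. Of the 19 windows 18 were tandem by the 80% limit given above. The 68 tandem windows without a site had a median of 68.1, and all 202 windows without a site one of 48.3. The 8 windows with 1 or 2 sites had a median of 41.5.

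Of these 19 windows 17 belonged to the family shown first. They are thus copies of like sequence, and some share an array, so the interval for the 19 can be too narrow. Replicate signals were 84.6 and 81.6 near pes-10, 65.4 and 60.8 at chrIII:7445498-7445733 near alh-12, an aldehyde dehydrogenase gene, and 49.7 and 52.1 at the second window near ddl-3. At these 3 the replicates were nearly equal. They differed at chrIV:9047378-9047613 near Y73F4A.1 (38.8 and 125.4), at chrV:14768487-14768722 near haf-7, a gene for an ABC half-transporter (24.8 and 114.3), and at chrIII:931428-931663 near fbxa-55 (32.8 and 96.2). Replicate 2 was higher at all 3. The other 2 windows with 3 or more sites held the 29-bp unit, near Y97E10AL.1 (70.4, with 30.1 and 31.8) and near trf-2 (50.6, with 35.9 and 18.2).

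Within the family, windows with and without sites overlapped in signal. The 17 with 3 or more sites ran from 48.5 to 266.3 (median 110.6), the 4 with 1 or 2 sites from 24.8 to 210.7 (median 57.3), and the 9 with none from 43.9 to 389.9 (median 69.0). An IDR of 0.01 was passed by 13, 3 and 5 of them. Thus the strongest window of the family was site-free, and the middle of the site-bearing windows was higher. Windows with no site also had fewer unique words (median 0%, beside 25% for those with 3 or more sites), and the part of this in the difference was not tested. In the site-free set 8 of 9 windows share 100-bp alignments at 90% identity with each other.

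**Figure D3:**
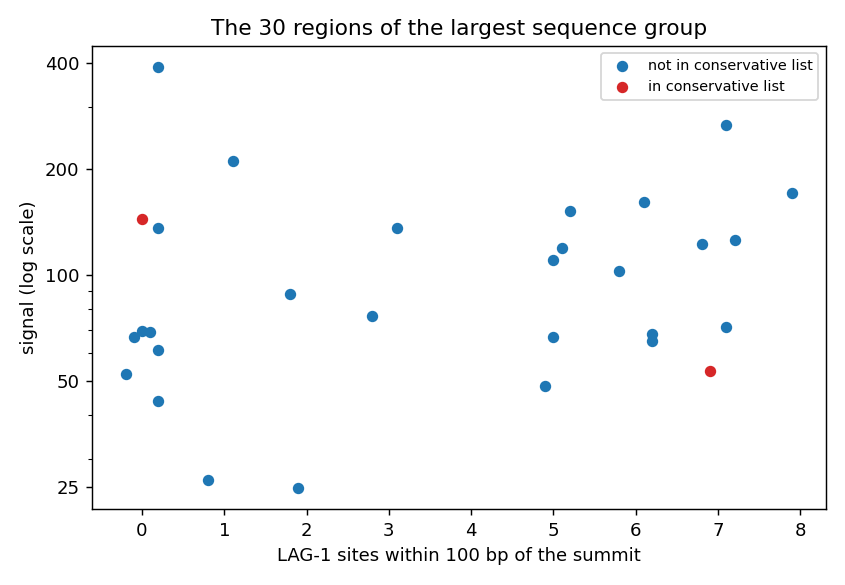
Signal (log scale) against the number of LAG-1 sites within 100 bp of the summit for the 30 regions of the largest sequence group, points spread slightly sideways; the highest point, 389.9, has 0 sites and the lowest, 24.8, has 2.

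The arrays could also be found without the ChIP values. A scan of the autosomes for masked tandem sequence outside genes and promoters, at 80% identity and at least 402 bp long, gave 259 arrays, and 49 of them (18.9%) held a candidate at an IDR of at most 0.1. Such a candidate lay in 13 of 16 arrays with 3 or more LAG-1 sites (81.3%, 57.0 to 93.4), in 2 of 11 with 1 or 2 (18.2%, 5.14 to 47.7) and in 34 of 232 without a site (14.7%, 10.7 to 19.8). Site-bearing arrays were longer (median 2412 bp against 804 bp). Among arrays of 1000 bp or more the counts were 12 of 15 (80%, 54.8 to 93.0) and 22 of 108 (20.4%, 13.9 to 28.9). Median shares of unique 50-base words were 10.5% and 16.1% in these longer arrays, the site-bearing ones having the lower share.

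Arrays with a unit like that of the family were taken by a word, as those with 3 or more copies of GAGAGTAA on either strand. The word stands in the family windows shown above, and 0.0709% of all candidate windows reach that count. There were 21. With 3 or more sites 10 of 12 arrays had such a candidate (83.3%, 55.2 to 95.3), and with fewer 3 of 9 (33.3%, 12.1 to 64.6). These intervals overlap, and the difference was not tested. The grouping of arrays by sites was made after the signals had been seen.

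**Figure D4:**
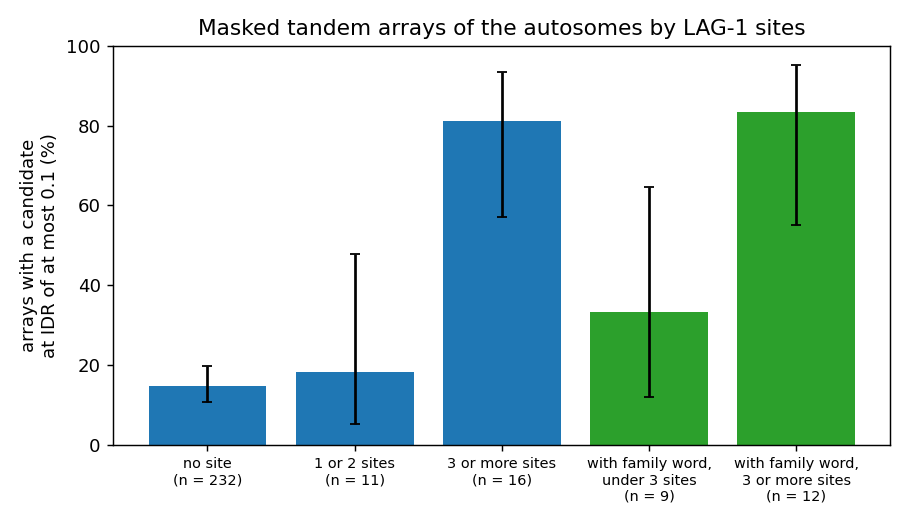
Share (%, bars, with Wilson 95% intervals) of masked autosomal tandem arrays with a candidate at IDR of at most 0.1, by the number of LAG-1 sites in the array; blue, all 259 arrays; green, the 21 of them with 3 or more copies of GAGAGTAA, the word shared by the largest family. Arrays with 3 or more sites reach 81.3%, those without 14.7%.

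Not every dense run of sites carried signal. Joining places with 3 or more sites in 201 bp over the whole genome gave 198 runs, of which 20 held a candidate at an IDR of at most 0.1. Among the 20 runs with 20 or more sites 13 did, and among the 165 with under 10 sites 5 did. Runs with more sites were also mostly longer, and runs differed in masking and place. Such a candidate lay in 16 of 79 runs that were more than 50% masked and in 4 of 119 others. In coding genes or promoters 2 of 99 runs held one. The part of length, masking and place was not tested. The run at chrIII:7444437-7452210, nearest to alh-12, had 160 sites, up to 8 in 201 bp, and 5 of the regions (best signal 152.3). In contrast a run of 104 sites at chrIII:3334345-3336976, also with up to 8 in 201 bp, had no better signal than 18.6. A sparser one at chrI:4281454-4294510, of 137 sites with at most 3 in 201 bp, had no candidate at all. These 2 had few unique 50-base words (4.84% and 4.32%), and the part of this in the lack of signal was not tested. The run at chrI:933525-934746 had 0.853% and held 2 regions. The summit window of one, at the edge of the run, had 53.3% unique words and a signal of 136.0, and that of the other 0.658% and 66.5.

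The 229 regions fell into sets of like sequence. Alignments of at least 50 bp at 80% identity placed 168 of them (73.4%) in 28 sets, and 61 stood alone. The second set, of 22 regions, is the dispersed one shown above: its signals were 33.5 to 51.6, 18 lay on arms, 0 passed an IDR of 0.01 and 0 held a site. The third, of 13, was rich in telomere words, lay on arms in 12 cases and had signals of 31.5 to 63.1. At least 3 telomere words stood in 14 of the 229 windows (6.11%, 3.68 to 9.999), in 2.05% (1.74 to 2.42) of weaker masked candidates and in 0.618% of all candidates.

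Some sets had higher signals. The 10 regions with the 45-bp unit or one related to it had a median signal of 129.6. Of these 8 passed 0.01, and 4 met the 80% limit for tandem windows. The 6 of the 26-bp unit ran from 4.68 to 711.3 (median 116.2), the lowest and the highest signals of all. The lowest was at an entry that overlapped a stronger one. The 8 regions of a set found only at chrI:10946046-10951906 had a median of 89.9, 7 passed 0.01, and 5 were tandem. Another set, in which 0 of 9 regions were tandem by that limit, had a median of 45.4, and 2 of the 9 passed. Sets of at least 3 regions in which all were tandem differed among themselves. Their medians were 45.0 and 47.8 in sets of 3 regions, and 88.5 and 116.9 in sets of 4.

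Most clusters held 1 kind of sequence. Where at least 3 summits lay in a chain with gaps of at most 10 kb, the regions were called clustered, and 57 of 229 (24.9%, 19.7 to 30.9) lay in 14 clusters. The share was 6.44% (4.74 to 8.68) for unmasked candidates, and 73.9% for the far more numerous weaker masked ones, which a fixed gap joins more easily. In 11 of the 14 clusters all regions were of 1 sequence set, and 9 clusters lay wholly in the central 50% of a chromosome. Clustered regions had a median signal of 84.4 and the others 47.5, and 40 of the 57 passed an IDR of 0.01. Only 2 clustered regions were in the conservative list.

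The largest cluster was the set of 8 on chromosome I, spanning 5861 bp. Next came 3 clusters of 5, namely the array near Y49G5A.1 (2110 bp), that near alh-12 (3279 bp), in which every window held 5 or more LAG-1 sites, and one near Y119C1B.3 at chrI:4542971-4547778, in which 3 windows held a site. The signal was uneven inside a cluster: near Y49G5A.1 it ran from 4.68 to 711.3. The entry with 4.68 overlapped a stronger one, at chrV:5285366-5285601 (111.7). Over all regions the median distance to the nearest other region was 46750 bp, and 77 had one within 2000 bp.

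The regions lay on chromosome arms about as often as the masked sequence they were drawn from. With arms as the outer 25% at each end of an autosome, 143 of 229 summits (62.4%, 56.0 to 68.5) were on arms, where 58.7% of masked bases outside genes and promoters lie. The share was 68.9% (67.8 to 69.97) for weaker masked and 48.7% (44.7 to 52.7) for unmasked candidates. Left arms held 85, centres 86 and right arms 58. Chromosomes I to V held 48, 40, 29, 52 and 60 regions, or 32.9, 23.7, 19.6, 20.4 and 24.5 per Mb of masked sequence outside genes and promoters.

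The share on arms fell with a stricter limit. At an IDR of at most 0.01 it was 31 of 76 (40.8%, 30.4 to 52.0), and that of the unmasked candidates was 20 of 51 (39.2%, 27.0 to 52.9). Regions in the centres had a median signal of 66.3 and 54 of 86 were tandem. On left arms the median was 46.8 with 22 of 85 tandem, and on right arms 47.4 with 15 of 58. Tandem regions had medians of 86.5 in centres and 63.1 on arms, and the others 47.5 and 45.8. Of the others, 9 of 32 in centres and 12 of 106 on arms passed an IDR of 0.01, and their median shares of unique 50-base words were 68.4% and 100%. The part of that share in the difference was not tested.

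Few annotated genes lay under the summits. A pseudogene was there in 8 regions and an RNA gene in 5, and the median distance to the nearest coding 5' end was 2701 bp (454 to 27748).

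Replicate 2 gave the higher signal at most regions. Own-ranking signals in both replicates were found for 208 of the 229 regions, where the strongest entry sharing 1 bp was taken and 4 regions shared an entry with a neighbour. Of these 137 were higher in replicate 2 and 71 in replicate 1, and 138 lay within 1.5 times of each other. The ratio of replicate 2 to replicate 1 had a median of 1.15 (0.344 to 5.47), beside 1.05 (0.401 to 2.66) over 531 unmasked candidates. Of those 531, 294 were higher in replicate 2 as well. In the site-bearing family the median ratio was 2.03 over 19 regions, 15 of them higher in replicate 2, and in the site-free windows 1.61 over 6. Outside the family it was 1.09 over 183, 117 of them higher in replicate 2. Depth is unknown, so a ratio mixes depth with enrichment.

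**Figure D5:**
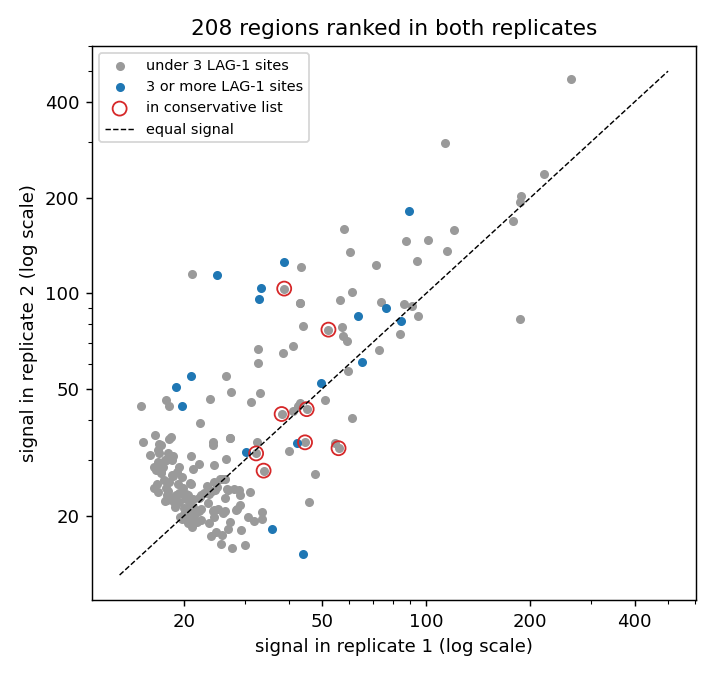
Signal in replicate 2 against replicate 1 (both log scales, each from that replicate's own ranking) for the 208 regions ranked in both; blue, 3 or more LAG-1 sites; red circles, in the conservative list; dashed line, equal signals. Regions above 100 in either replicate mostly lie on or above the line, with 1 far below it (186.5 and 82.8).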

How the data were processed

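The ChIP-seq data were peak lists on ce11 for 2 replicates of 1 group, made from precipitated DNA and a control, per the labels and deposited notes. The sources used here give no aligner or peak caller. The deposited score is a whole number that follows the IDR and was not used. The deposited signal is the authors' value per peak over the control. The deposited −log10 values of the rankings give the global IDR. In the ranking of both replicates 4 columns of per-list values could not be tied to a sample and were not used, so replicate signals came from each replicate's own ranking. Read totals were not in the files used here, so depth is unknown and no error covers a single signal.

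Regions, lists and groupings were chosen with earlier results of these data known. Sequence and soft-masking came from NCBI WBcel235 (ce11) and genes from Ensembl release 115. Sets were aligned with blastn 2.17.0 in single linkage. Other steps ran in Python 3.11.15 with networkx 3.6.1, matplotlib 3.10.9, SciPy 1.17.1, pandas 2.3.3 and NumPy 2.4.6. Shares have Wilson 95% intervals, and no significance test was made. The intervals take regions as independent, so they can be too narrow where regions are copies of 1 repeat or share an array. Regions named were the 12 strongest, those in the conservative list, those with 3 or more sites, and the strongest of the largest clusters and sets, summarised where alike. Each has its nearest coding 5' end. The scans for periods, words, sites, sets and clusters were tested on simulated data.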

Additional observations from a re-analysis of the deposited data

How the results depend on the processing

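The rule itself set much of what was counted. Stricter limits kept fewer and stronger regions. At an IDR of at most 0.05 there were 137 regions, with a median signal of 67.2, 51.8% on arms, 32.8% in clusters, 16.8% with a LAG-1 site and 79.6% in sequence sets. At 0.01 there were 76, with a median of 114.3, 11.8% in the conservative list, 40.8% on arms, 39.5% in clusters, 23.7% with a site and 88.2% in sets. With at least 80% of the window masked there were 148, with a median of 58.7, 54.7% on arms, 31.8% in clusters and 89.9% in sets. The share on arms thus fell under each of these. The site share was higher at the stricter IDR limits, and at 80% masked it was 15.5%, within the counting error of the reported share. In the ranking of pooled reads 284 regions met the rule and the median was 46.5.

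With 1 replicate's own ranking in place of both, each number of regions was far lower (65 without replicate 2 and 94 without replicate 1). The median signal was then 56.4 to 65.9, on the scale of those rankings and not that of the ranking of both. On that scale the regions of the main rule had medians of 24.4 in replicate 1 and 27.8 in replicate 2. The conservative list held 4.26% to 9.23%, arms 40.4% to 44.6%, clusters 27.7% to 54.3%, sites stood in 19.1% to 24.6%, and sets held 81.5% to 88.3%. Arms as the outer 33.3% at each end held 80.8%, gaps of up to 50 kb put 31.0% in clusters, TGGGAA alone stood in 17.9% of windows, sets at 100 bp and 90% identity held 48.5%, and 48.5% were tandem at 70% identity. The median share of unique words was 41.6% for words of 36 bases and 100% for words of 100. Of 74 alternative values 36 were called the same and 38 moved. A share was called the same within its counting error and a median signal within the replicate spread. A number of regions was called the same within 1.5 times the reported one. No paired analysis was possible because the series has 1 group. Unknown depth, a control not analysed here and no untagged precipitation limit what a signal at a repeat shows.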
